A study of Bos taurus with 15 samples.

Results

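The positions described here are CpG cytosines that were read deeply in the mammary gland of every heifer and were neither mostly methylated nor mostly unmethylated in any of them. A position was taken where more than 10 reads were counted and 30 to 70% of them were methylated in each of the 6 heifers. These are called intermediate positions, and a position with more than 10 reads in every heifer is called deep. There were 2458 intermediate positions among 18486 deep positions (13.3%), out of 23458474 positions listed in at least 1 heifer. The heifer levels chose the positions, so these levels are given as a description. The only test that touches them is the comparison of dam treatments over all deep positions, whose result at these positions is limited by the choice.

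The animals were Holstein offspring of dams that were heat stressed (shade only) or cooled (shade, fans and soakers) for the last 6 to 7 weeks of gestation. Mammary gland was taken at day 21 of the first lactation from 3 in utero cooled heifers (IUCL-H) and 3 in utero heat stressed heifers (IUHT-H), which had been kept alike since birth. Liver was taken at birth from 5 in utero cooled (IUCL-B) and 4 in utero heat stressed (IUHT-B) bull calves. Each animal gave 1 library for reduced representation bisulfite sequencing (RRBS), which reads the methylation of CpG sites near the cuts of restriction enzymes. Tissue, sex and age cannot be told apart between heifers and calves, and the dam's treatment is the factor the study set within a tissue. Per the study's methods the bull calves were born in more than 1 year, which the labels do not give per calf, so the part of birth year in the liver values was not tested. Heifers are numbered 1 to 3 within their group in the order of their records and calves by the number in their labels.

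A bisulfite read reports 1 DNA molecule, so a level near the middle of the scale is a mixture of methylated and unmethylated molecules. In an imprinted region 1 parental allele is methylated and the other is not, and this holds over a stretch of neighbouring CpGs and, for many such regions, in every tissue. On the X chromosome of a female cell many CpG islands are methylated on the inactive copy only, whereas a male cell has a single X. Satellite DNA and other repeated sequence places many copies under 1 genome position when the assembly holds fewer copies than the animal does, and the copies can differ in methylation. A mixture of cell types gives intermediate levels as well.

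Deep positions were rare in the heifer libraries. A heifer library held 13949097 to 20240625 CpG calls over 7552567 to 9753540 positions, and 0.436 to 0.632% of its positions had more than 10 reads. A listed position had a median of 2 reads over the 6 heifers together and a mean of 4.38. A calf library held 10484911 to 38221835 calls over 307023 to 5958861 positions, and 17.7 to 50.6% of its positions had more than 10 reads. The positions of IUCL-B calf 4 (3289592) and calf 5 (5958861) outnumbered those of the other 7 calves, and the main liver values are also given without these calves.

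Intermediate positions lay in the low shoulder of a distribution that leaned to high methylation. The mean level over the 6 heifers was above 70% at 10733 deep positions (58.1%), below 30% at 1722 (9.32%) and between these limits at 6031. Of these 6031, the 2458 intermediate positions (40.8%) kept all 6 heifers inside the limits. A further 1586 deep positions had 5 of 6 heifers inside, 998 of them with the other heifer within 5 points of a limit. The limits cut through a continuous range. In 307 intermediate positions a heifer lay within 1 point inside a limit, with a mean level of 53.1%, and 238 positions missed the rule by at most 1 point, with a mean level of 55.2%.

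**Figure D1:**
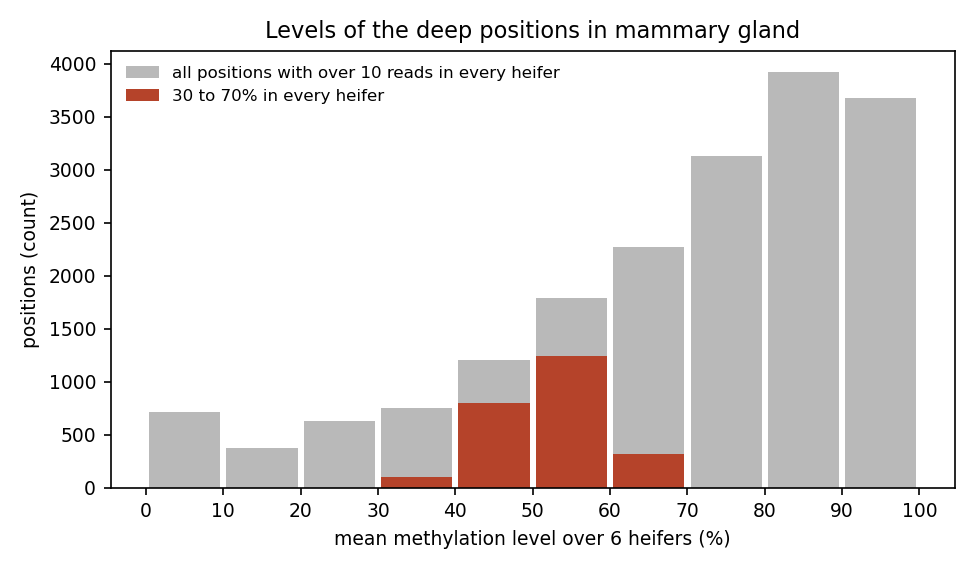
Number of deep positions (vertical axis) by the mean methylation level over the 6 heifers (horizontal axis, percent, in steps of 10 points). Grey bars are all 18486 deep positions and red bars the 2458 intermediate positions, of which 1243 had a mean of 50 to 60%.

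The heifers had nearly the same mean level over the intermediate positions. It was 53.0, 51.9 and 53.6% in IUCL-H heifers 1, 2 and 3 and 51.4, 51.6 and 51.9% in IUHT-H heifers 1, 2 and 3. The group means were 52.8% ± 0.814 (SD, n = 3) and 51.6% ± 0.223 (SD, n = 3), and the lowest IUCL-H heifer and the highest IUHT-H heifer both stood at 51.9%. The other deep positions averaged 70.4 to 71.7% in a heifer.

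Intermediate positions carried about as many reads as the other deep positions. The median number of reads in a heifer was 44 to 63 at the intermediate and 37 to 53 at the other deep positions. The ratio of these medians was 0.981 in IUCL-H heifer 3 and 1.06 to 1.26 in the other 5 heifers. The deepest single value was 22744 reads, in IUCL-H heifer 3. The 95% Wilson interval of a level in a heifer had a median width of 26.2 points, from 9.63 (5th percentile) to 44.4 (95th percentile). These intervals cover counting error only, since reads copied by PCR and not marked by molecule may stem from the same molecule.

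The rule limits the spread between heifers, so the spread is a description only. The median SD between heifers was 6.59 points, beside 7.37 points from binomial counting alone, and the SD between the mean levels of positions was 6.75. Among the 297 intermediate positions with more than 100 reads in every heifer, the SD between heifers was 3.66 points and the counting SD 3.00, whereas positions differed from each other with an SD of 8.17. Across these 297 positions the levels of any 2 heifers had a Pearson correlation of 0.688 to 0.88, and across all 2458 of 0.336 to 0.473. Positions share libraries and neighbouring positions share reads, so these values are descriptions across positions.

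Most intermediate positions were on the numbered autosomes. Chromosomes 1 to 29 held 1795, the X chromosome 36 and sequences without a place on a chromosome (unplaced) 627. The intermediate share of deep positions was 13.1% on chromosomes 1 to 29, 15.0% on unplaced sequences and 5.83% on the X chromosome. Among single autosomes it ran from 4.97% on chromosome 25 to 21.8% on chromosome 1 and 21.3% on chromosome 29. Unplaced sequences took 0.921% of all listed positions, 22.6% of the deep positions and 25.5% of the intermediate positions, which lay on 336 of the 758 unplaced sequences with a deep position. Deep positions of either kind were thus more often unplaced than listed positions, and the shares of the 2 kinds were close. X chromosome positions made up 3.29% of the placed listed positions, 4.31% of the placed deep positions and 1.97% of the placed intermediate positions.

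Deep positions on chromosomes 1 to 29 were packed into a few places. A window of 100 kb was called dense where it held at least 50 deep positions, a threshold set after the data had been seen. Of the 1219 windows with a deep position, 55 were dense, and these formed 40 blocks. They held 1146 intermediate positions, 63.8% of those on chromosomes 1 to 29, and 7675 deep positions, 56.0% of those on chromosomes 1 to 29. Windows with at most 5 deep positions held 180 intermediate positions among 1624 deep ones (11.1%).

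The 4 blocks with the most intermediate positions held 662 of them, 36.9% of those on chromosomes 1 to 29, and 3443 deep positions, 25.1% of those there (all coordinates refer to UMD3.1). The block chr27:28461437-28939528 had 197 intermediate among 1238 deep positions. The block chr1:145300034-145452608 had 168 among 607, the highest intermediate share among these 4 blocks (27.7%). The block chr29:30225443-30385912 had 166 among 706, and chr8:74501904-74797318 had 131 among 892. The mean levels of the chr1 block were 52.0, 50.6 and 53.2% in IUCL-H heifers 1, 2 and 3 and 51.0, 48.9 and 50.2% in IUHT-H heifers 1, 2 and 3. In these 4 blocks 9.68 to 12.7% of the listed positions were deep, and a listed position had a median of 6 to 9 reads over the heifers together.

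Intermediate positions seldom formed long runs. A run is a set of intermediate positions on 1 sequence with gaps under 1 kb, and adjacent positions were counted as the strands of 1 CpG. There were 1481 runs, of which 975 held a single CpG, 229 held at least 3 and 52 held at least 5. The largest held 9 CpGs. Of the 52 long runs, 40 lay on chromosomes 1 to 29 and 12 on unplaced sequences. The X chromosome had 31 runs, none with more than 2 CpGs.

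Long runs were mostly mixed with deep positions that failed the rule. Purity is the intermediate share of the deep positions from 500 bp before to 500 bp after a run. A deep position lowers purity if 1 heifer lies outside the limits of the rule, even where its mean level lies inside them. Of all deep positions with a mean level inside the limits, 40.8% passed the rule in every heifer. A low purity alone therefore does not show that the neighbours were in another state. The median purity over the 52 long runs was 37.7%, from 17.6 to 100%, and 3 of them reached 80%. Counted apart from purity, 20 of the 52 had a median depth no greater than that of all deep positions. A run on chromosomes 1 to 29 with at least 5 CpGs, a purity of at least 80% and a depth up to the median of deep positions was called a pure run, which describes its form only. This form was found 1 time, and 0 times without IUCL-H heifer 1, without IUCL-H heifer 2 or without IUHT-H heifer 3.

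The pure run was chr1:145330629-145331323, with 5 CpGs over 695 bp. All 5 deep positions of its surroundings were intermediate, and its depth was 0.946 of the median of all deep positions. Summed over the 6 heifers it had 236 reads per position, against a mean of 4.38 for a listed position. Its mean level was 52.7, 53.5 and 52.8% in IUCL-H heifers 1, 2 and 3 and 56.5, 47.6 and 48.8% in IUHT-H heifers 1, 2 and 3. The group values overlapped. This run lay inside the dense block of chromosome 1 described above, and its first pair of positions, 145330629 and 145330652, was 23 bp apart. In liver, 1 or 2 of its 5 positions were covered in a calf. More than 10 reads at a position were found in 5 calves. IUCL-B calf 1 had 278 reads there, all methylated, IUHT-B calf 4 had 74 reads, all methylated, and IUHT-B calf 2 was at 100% at its 1 such position. IUCL-B calf 4 had 80 reads, 32.5% methylated, and IUCL-B calf 5 had 11 reads, 45.5% methylated. Of the 2 positions with more than 10 reads in IUCL-B calf 4, 1 was below 30% and 1 at 30 to 70%.

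The run with the most CpGs was chr29:19412170-19415252, with 9 CpGs at 10 positions. Its levels were 49.5, 53.0 and 48.3% in IUCL-H heifers 1, 2 and 3 and 49.5, 48.6 and 51.6% in IUHT-H heifers 1, 2 and 3, a closeness that the rule favours. Its depth was 2.07 times the median of all deep positions, and 20 of the 30 deep positions around it were not intermediate. The other deep positions sat between the intermediate ones. Position 19414796 averaged 85.3% ± 3.99 (SD, n = 6) beside 55.7% ± 5.52 (SD, n = 6) at position 19414811. Reads of 50 bp can span both positions, but a heifer had 79 to 528 reads at the first and 22 to 162 at the second. The opposite strand of the second CpG, position 19414812, averaged 71.3% ± 6.81 (SD, n = 6) from 104 to 617 reads.

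Further long runs had the same mixed form. On chromosome 29, the run chr29:30227938-30231664 had 8 CpGs and a purity of 23.5%, and chr29:30361825-30362949 had 8 CpGs and a purity of 50.0%. On chromosome 1, chr1:145429105-145430331 had 8 CpGs and a purity of 66.7%. The mean level of these 3 runs over the heifers was 46.1, 44.4 and 49.3%. The 4 unplaced runs named by CpG number had 7, 6, 6 and 5 CpGs, the last having the most reads of 9 runs that tie at 5. They had mean levels of 54.3, 54.0, 51.7 and 51.3% and purities of 43.8, 50.0, 31.6 and 50.0%. The last had 2.32 times the median depth and the other 3 had 0.883 to 0.894 times. Around the second of these 4 runs, the deep positions that failed the rule averaged 60.1, 88.1, 87.1, 37.2, 41.8 and 40.4%. Around chr1:145429105-145430331 they averaged 72.4, 81.7, 66.5 and 77.7%. The failing positions thus included some with a mean level inside the limits of the rule.

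The X chromosome runs with the most CpGs were short. The 4 with the most CpGs had 2 each and began at positions 100093321, 29091530, 103368274 and 55932848. They are the 4 with the most reads of 5 runs that tie at 2 CpGs. Their mean levels over the heifers were 55.9, 53.2, 56.8 and 50.2%. At the first, the CpG at 100093321 was 58.1% ± 4.20 (SD, n = 6) methylated and the base on the opposite strand of the same CpG, 100093322, was 27.9% ± 7.58 (SD, n = 6). That strand was covered by 101 to 299 reads and the other by 22 to 83. Both positions 100093365 and 100093369 stood above 90% in every heifer. The intermediate level was not shared by these neighbouring CpGs. At the last, both deep positions around it were intermediate (46.3% ± 10.9 and 54.1% ± 4.76, SD, n = 6), with a depth of 0.752 of the median of all deep positions.

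The opposite strand of an intermediate CpG mostly had a pooled level in the same range. Neighbours of any depth were pooled over the heifers and kept where they had at least 30 reads. Neighbours 1 bp away were taken as the other strand of the same CpG, without a check of the sequence. Of these, 84.1% lay at 30 to 70%, with a median absolute difference of 8.44 points. Around the other deep positions with a mean of 30 to 70% this share was 66.2%. Held to the rule in every heifer, fewer strands matched. Among pairs of deep positions 1 bp apart, 44 had both strands intermediate and 118 had 1 of them.

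At other CpGs close by, the intermediate state was found less often. Of the neighbours 2 to 10 bp away 32.0% lay at 30 to 70%, and 54.9% lay above. At 11 to 50 bp the share was 42.5%, and at 501 to 1000 bp it was 43.6%. Thus no fall of the share with distance was seen beyond 10 bp. Around the other deep positions the shares were 14.2% at 2 to 10 bp and 28.7% at 501 to 1000 bp. Around those other deep positions whose mean level also lay at 30 to 70%, they were 32.3 and 40.4%, close to the shares around the intermediate positions. Neighbours come in shared reads and repeated surroundings, so these shares were not tested.

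**Figure D2:**
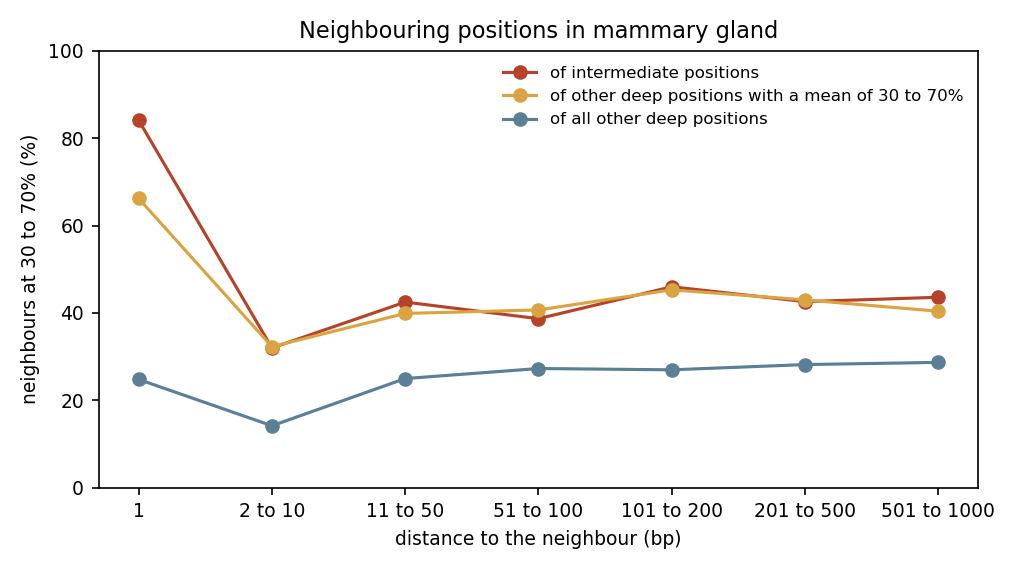
Share of neighbouring positions with at least 30 pooled reads that were 30 to 70% methylated (vertical axis, percent) by distance from the position (horizontal axis, bp). Around intermediate positions (red) the share was 84.1% at 1 bp and 32.0 to 46.0% beyond, and around all other deep positions (blue) it was 14.2 to 28.7%.

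Intermediate positions recurred at a fixed distance. Of the pairs of intermediate positions, 136 were 22 or 23 bp apart and 4 were 20 or 25 bp apart. Among pairs of the other deep positions these counts were 1859 and 771. The spacing of 15 to 45 bp with the most power was 22.8 bp among intermediate pairs and 44.6 bp among pairs of the other deep positions. The latter lies at the upper end of the search, so it is not read as a different spacing. Pairs of the other deep positions also peaked at 23 bp, with 1265 pairs against 594 at 22 bp and 521 at 24 bp. Of the 764 pairs of intermediate positions 11 to 300 bp apart, 434 (56.8%) lay within 2 bp of a multiple of 22.8 bp. The same distances make up 18.6% of all distances, and 23% of the pairs of other deep positions fell there. The spacing of 22.8 bp was chosen on the intermediate pairs, which favours their share, and it was not tested.

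Among intermediate pairs, the spacing was most frequent on unplaced sequence and in the dense blocks. The share of pairs near a multiple was 77.5% on unplaced sequences and 53.6% in dense windows. Outside dense windows on chromosomes 1 to 29 it was 27.8% of 126 pairs. For both kinds of position the share differed by place. A deep position 22 or 23 bp away was found for 35.3% of intermediate and 33.1% of other deep positions in dense windows, for 13.9 and 12.7% outside them, and for 52.0 and 24.6% on unplaced sequences. Among all deep positions of the chr27 block, 253 pairs were 22 or 23 bp apart and 50 were 20 or 25 bp apart. The chr1 block had 196 such pairs against 3 and the chr29 block at 30 Mb had 223 against 6. The spacing was weak or absent in many of the other blocks, of which 3 are given here. In chr29:19400489-19449293, which holds the run of 9 CpGs, the counts were 14 and 14, in chr4:41465450-41497439 they were 6 and 8, and in chr3:1019351-1050567 they were 11 and 10. The intermediate positions of these 3 blocks had median reads of 113.5, 87.5 and 49.0 in a heifer.

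**Figure D3:**
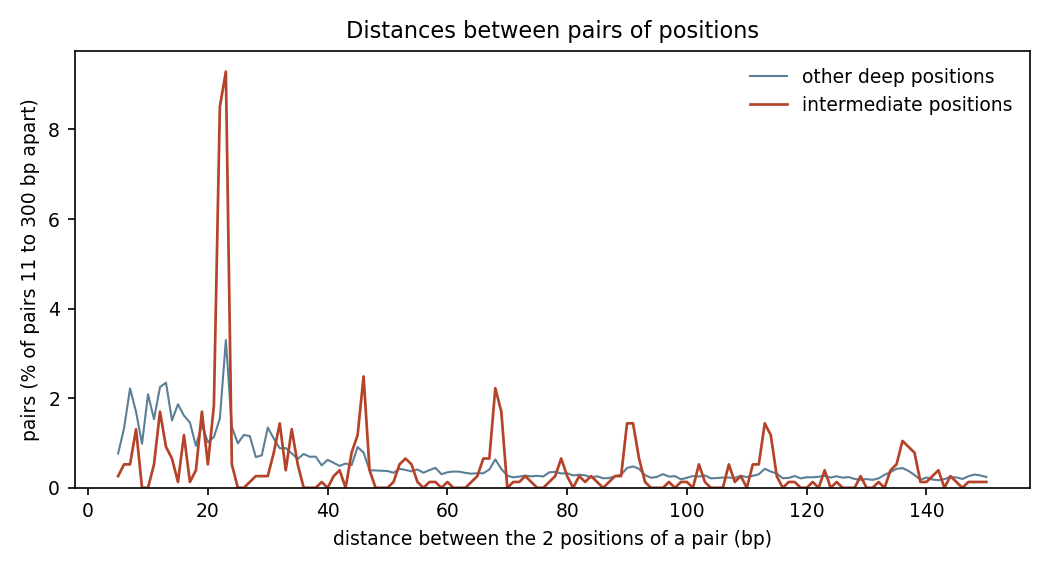
Pairs of positions by the distance between them (horizontal axis, bp), as a percent of all pairs 11 to 300 bp apart (vertical axis). Pairs of intermediate positions (red) peak at 22 and 23 bp and again near multiples of 22.8 bp, and pairs of other deep positions (blue) have a smaller peak at the same place.

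The surroundings of intermediate positions were read more than the genome as a whole. The positions within 1 kb that were not themselves deep averaged, in the median, 20 reads over the heifers together around intermediate and 19.3 around other deep positions, against the mean of 4.38 for a listed position. Surroundings at or under that mean were found for 104 intermediate positions (4.23%) and for 5.68% of the other deep positions. Around the 180 intermediate positions in windows with few deep positions the median was 5.04 reads, beside 5.98 around the other deep positions there. Of these 180, 73 (40.6%) had no other deep position within 1 kb, beside 34.8% of the other deep positions in such windows.

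Of the intermediate positions, 4 had surroundings that were both read no more than the genome mean and 35 to 65% methylated, which is 0.163%, beside 0.337% of the other deep positions (54 of 16028). This set was chosen after its values had been seen. On chromosome 13, position 67820773 had levels of 51.4, 51.2 and 50.0% in IUCL-H heifers 1, 2 and 3 and 46.5, 55.0 and 52.0% in IUHT-H heifers 1, 2 and 3, from 28 to 100 reads. Its surroundings stood at 46.8%. On chromosome 9, position 103467363 had levels from 32.4 to 55.6% and surroundings at 36.1%. Positions 96972297 and 96972300, also on chromosome 9, are 3 bp apart and had levels of 48.0 to 65.1% and 34.8 to 55.8%, with surroundings at 64.7%. The surroundings rest on 51 to 169 reads. In liver no calf had more than 1 read at these 4 positions, so their state there was not detectable.

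Liver levels, which took no part in the choice, averaged closer to the middle at the intermediate positions than at the other deep positions. A calf covered 30 to 71.9% of the 2458 positions. The mean level at the covered positions was 56.4, 58.0, 61.0, 61.4 and 62.3% in IUCL-B calves 1 to 5 and 60.1, 59.7, 58.6 and 58.6% in IUHT-B calves 2 to 5. It was 59.6% ± 1.85 (SD, n = 9) over all calves, against 73.2% ± 1.26 (SD, n = 9) at the other deep positions, and the values of the 9 calves did not overlap between these sets. At the other deep positions with a heifer mean of 30 to 70%, the calves averaged 60.6% ± 1.86 (SD, n = 9). Without IUCL-B calves 4 and 5 the level at the intermediate positions was 58.9%. The groups IUCL-B (59.9% ± 2.49, SD, n = 5) and IUHT-B (59.3% ± 0.736, SD, n = 4) overlapped.

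Within a calf, however, most of these positions were not intermediate. Where more than 10 reads were counted in the calf, 16.5 to 21.4% of the positions were at 30 to 70% in IUCL-B calves 1, 2 and 3 and the 4 IUHT-B calves. The shares were 32.5% in IUCL-B calf 4 and 39.0% in calf 5, the libraries with the most positions. In the 9 calves, 44.9 to 52.7% of the positions were above 70% and 14.6 to 34.5% were below 30%. All reads of a position were in 1 state at 14.1 to 40.1% of the positions of a calf, against 25.3 to 51.8% for the other deep positions and 15.9 to 40% for those with a heifer mean of 30 to 70%. The share at 30 to 70% was 9.27 to 19.2% for the other deep positions and 14.7 to 35.2% for those with such a heifer mean.

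**Figure D4:**
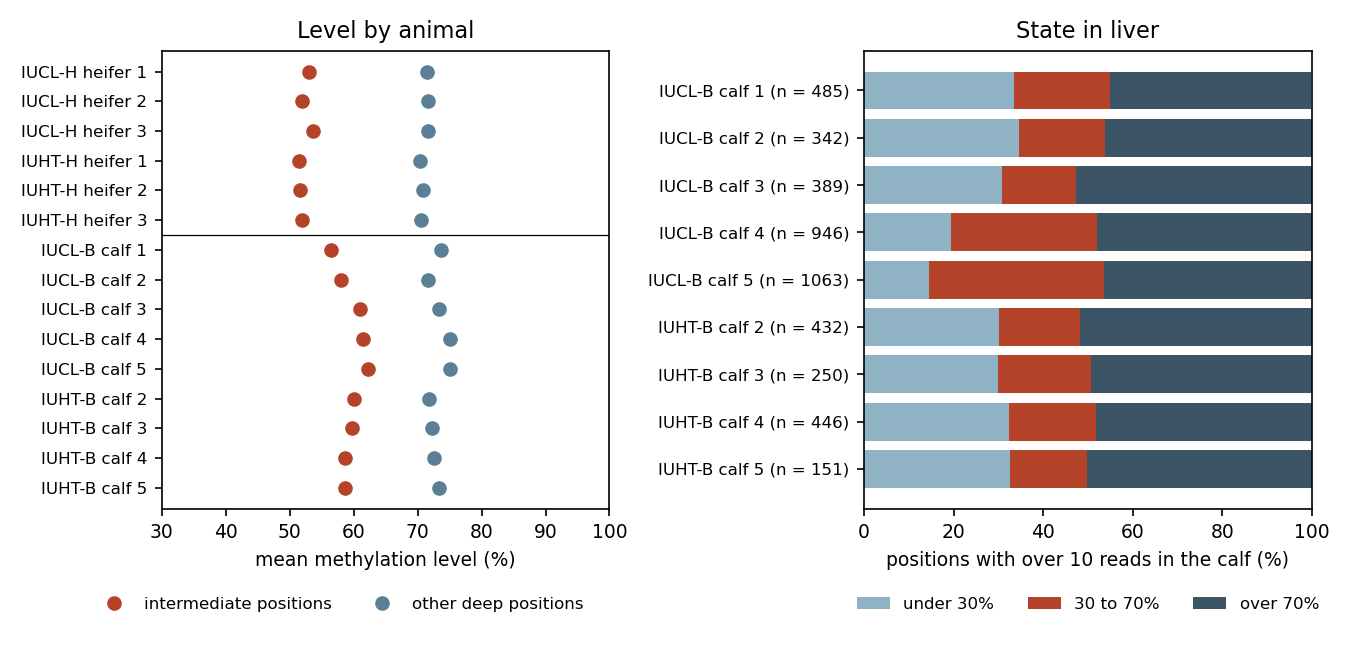
Left, mean methylation level (horizontal axis, percent, from 30 to 100) of each animal at intermediate (red) and other deep positions (blue), without error bars; each point is 1 animal. Right, share of the intermediate positions with more than 10 reads in a calf (horizontal axis, percent, n beside each calf) that were under 30%, at 30 to 70% or over 70%, with 16.5 to 39.0% in the middle class.

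The same position often had opposite states in different calves. More than 10 reads in at least 5 calves were found at 299 intermediate positions. At 214 of them (71.6%) some calves were below 30% and others above 70%, against 38.1% of the other deep positions and 64.6% of those with a heifer mean of 30 to 70%. At 0 of the 299 were all such calves at 30 to 70%. Without IUCL-B calves 4 and 5, a comparison chosen after seeing the data, 151 positions reached this depth in 5 or more of the 7 remaining calves. Both states were found at 94 of them (62.3%), and 1 was at 30 to 70% in every such calf. Both states were found at 34.5% of the other deep positions and 60.6% of those with a heifer mean of 30 to 70%. The mean over the calves nevertheless lay at 30 to 70% at 204 of the 299 (68.2%). This was so at 23.7% of the other deep positions and 58.3% of those with a heifer mean of 30 to 70%. Unplaced positions had calves of both states at 78.1% of 64 and positions of chromosomes 1 to 29 at 70.3% of 229.

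In 47 intermediate positions all 15 animals had more than 10 reads, 11 of them on unplaced sequences. The SD between calves had a median of 21.6 points, against 5.95 between heifers, whose spread the rule limits. The median range between calves was 68.8 points, and it exceeded 50 points at 38 of the 47. At 32 positions there were calves below 30% and calves above 70%. Without IUCL-B calves 4 and 5 the median SD was 23.3 points, the median range 68.5 points and both states were again found at 32 positions. The number of calves at 30 to 70% was most often 5 (10 positions) and reached 8 at 1 position. An example of the spread was chr27:28711022-28711022, inside the chr27 block, where the heifers had 42.1 to 64.7% and the calves 5.8 to 96.2%. The rule bounds the heifers and not the calves, so a wider range in calves was favoured by the choice of positions. The part that library width and the share of positions with all reads in 1 state play in this spread was not tested.

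**Figure D5:**
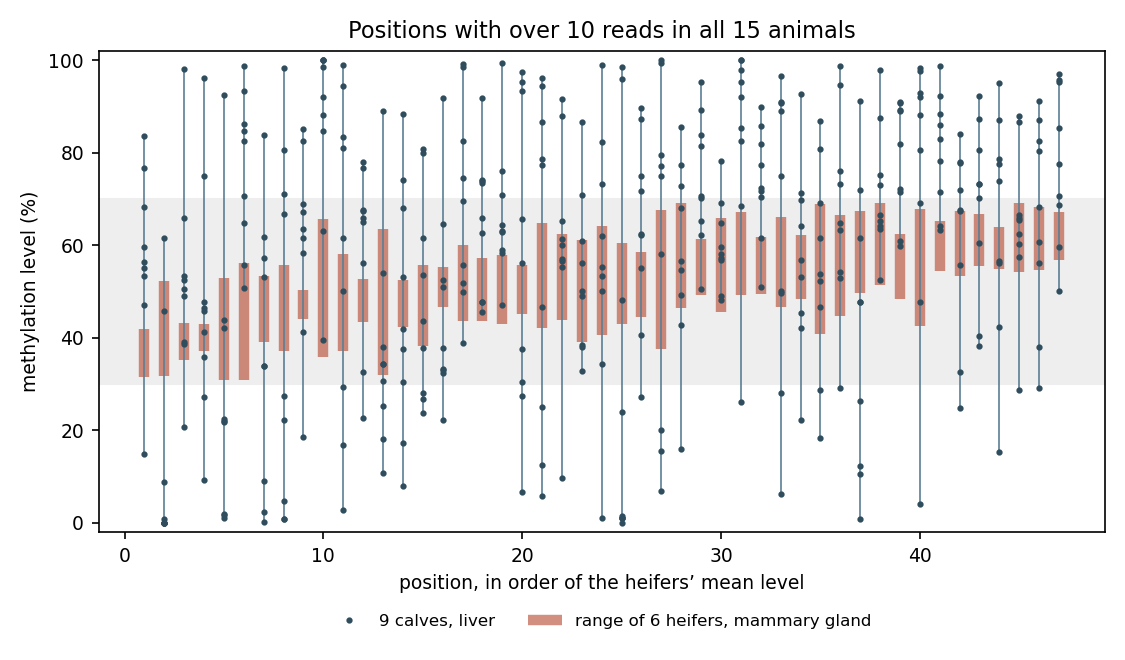
Methylation level (vertical axis, percent) at the 47 intermediate positions with more than 10 reads in all 15 animals, in order of the heifers' mean level (horizontal axis, rank). Thick red bars are the range of the 6 heifers, dots the 9 calves and thin lines the range of the calves; the grey band is 30 to 70%, and the calf range was wider than the heifer range at all 47 positions.

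On the X chromosome, of which a male carries 1 copy outside the pseudoautosomal region shared with the Y chromosome, the intermediate positions had mixed states in the bull calves. A calf covered 13.9 to 55.6% of the 36 intermediate X positions, and its mean level there was 49.0 to 72.6%. Of the 2 to 13 positions with more than 10 reads in a calf, 20 to 100% were at 30 to 70%, and all reads were in 1 state at 0 to 50.0%. For the other deep X positions the mean level of a calf was 73.3 to 79.7%, with 3.49 to 12.4% at 30 to 70% and 39.8 to 70.8% in 1 state. Depth in 5 or more calves was reached by 6 intermediate X positions, 3 of them with calves below 30% and calves above 70%, and 0 were at 30 to 70% in every such calf. The 2 X positions with more than 10 reads in all 15 animals are given here after their values had been seen. At position 30971674 the heifers averaged 55.1% ± 7.22 (SD, n = 6) and the calves 60.1% ± 9.51 (SD, n = 9), and 8 of 9 calves were at 30 to 70%, the exception being IUCL-B calf 4. These calf levels ranged from 48.1 to 78.2% and rested on 30 to 157 reads. At position 147280290 the heifers averaged 50.4% ± 5.81 (SD, n = 6) and the calves 64.7% ± 15.5 (SD, n = 9), with 5 of 9 calves at 30 to 70%. This position lies toward the end of the chromosome where the pseudoautosomal region is, so 1 copy in the calves is not assumed there. The X position 30971674 was the one with the most calves at 30 to 70% among the 47.

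The dam's treatment was compared within each tissue by logistic regression over all deep positions, with a call at a pooled difference of at least 15 points and a Benjamini-Hochberg q of 0.2 or less. In the mammary gland 285 of 18486 deep positions were called, which is 1.54%, and 32 of the 2458 intermediate positions (1.3%) were among them. Of the 32, 10 were higher and 22 lower in IUHT-H, against 0.427 and 1.11% of all deep positions. The rule keeps any difference between heifers within 40 points and limits their spread, so nothing is read from these shares beside those of all deep positions. The logistic test takes no account of spread between animals. With edgeR's quasi-likelihood test, which does, 0 intermediate positions were called, as were 0 of all deep positions, and 57 (2.32%) had an unadjusted p under 0.05, against 4.5% of all deep positions. An overdispersion F test also called 0 of all deep positions, intermediate ones included. It had 38 intermediate positions (1.55%) at an unadjusted p under 0.05, against 1.62% of all deep positions. On simulated counts without spread between animals this test called 1 of 200 changed mammary positions, so nothing is read from its 0. The heifer groups did not overlap at 282 intermediate positions (11.5%), against 10.2% of all deep positions.

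The 6 called mammary positions described here were picked for their large differences between group means, so their separation is a description that the choice favours. At chr7:51293125-51293125 the levels were 34.2, 34.8 and 34.2% in IUCL-H heifers 1, 2 and 3 and 67.9, 54.3 and 66.7% in IUHT-H heifers 1, 2 and 3, so all IUHT-H heifers were higher. The logistic q was 1.01e-05 and edgeR's adjusted p was 0.51. On chromosome 14, position 468986 rose by the logistic test from 36.1 to 58.1% (q = 0.0332) and position 374622 from 43.8 to 65.3% (q = 0.051), both with an edgeR adjusted p of 0.994. The largest lower value was on an unplaced sequence, where IUCL-H heifers averaged 67.2% ± 4.13 (SD, n = 3) and IUHT-H heifers 41.9% ± 11.2 (SD, n = 3; logistic q = 0.145, edgeR adjusted p = 0.994). At chr27:26379921-26379921 the means were 58.3 and 35.5% (logistic q = 0.175), and at another unplaced position 59.9 and 38.5% (logistic q = 0.178). None of these 6 passed the edgeR test.

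In liver, 900 positions had more than 10 reads in all 9 calves, and 298 of them were called, which is 33.1%. Of the 47 intermediate positions tested, 23 (48.9%) were called, 10 higher and 13 lower in IUHT-B, against 14.2 and 18.9% of the 900. Here the spread between calves was far above binomial counting. The dispersion of a position averages 1 under counting error alone, with a median somewhat below 1. The observed median was 44.0 at the intermediate positions and 32.1 over all 900. In the mammary gland the medians were 0.88 and 1.13, and the rule, which limits the spread of the heifers, favours a low value for the first. The F test, which scales by the dispersion, called 3 intermediate positions in liver (6.38%), against 6.33% of the 900. With this test 8 (17.0%) had an unadjusted p under 0.05, against 16.8%. Without IUCL-B calves 4 and 5, the logistic test called 22 of 50 intermediate positions, against 37.4% of 1134, and the F test 2, against 5.03%. With edgeR 0 of the 47 and 2 of the 900 (0.222%) were called, and 1 of the 47 had an unadjusted p under 0.05, against 9.11% of the 900. The calf groups did not overlap at 1 of the 47 positions (2.13%), against 3.78% of all 900.

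The liver positions with the largest differences among those called by the logistic test had overlapping groups. At chr27:28862761-28862761 the levels were 88.9, 90.9, 96.6, 90.7 and 49.6% in IUCL-B calves 1 to 5 and 28.0, 50.0, 6.19 and 75.0% in IUHT-B calves 2 to 5. IUCL-B calf 5 fell inside the IUHT-B range (logistic q = 2.48e-48, edgeR adjusted p = 0.43). At chr27:28497739-28497739 the group means were 91.5% ± 7.37 (SD, n = 5) and 53.3% ± 37.5 (SD, n = 4), and at chr27:28614744-28614744 they were 70.6% ± 17.7 (SD, n = 5) and 47.8% ± 25.7 (SD, n = 4). All 3 lie in the chr27 block. In the other direction, IUCL-B calves averaged 25.3% ± 11.2 (SD, n = 5) at an unplaced position where IUHT-B calves averaged 51.9% ± 26.7 (SD, n = 4). At chr14:1077313-1077313 the means were 37.9 and 61.4%, and at chr9:53618894-53618894 they were 49.1 and 71.4%. The edgeR adjusted p of these 6 positions was between 0.43 and 0.774.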

How the data were processed

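CpG methylation was measured by RRBS in 15 Holstein cattle. DNA was cut with MspI and TaqαI, fragments under 300 bp were converted with bisulfite and reads of 50 bp were taken from single ends. The submitters' processing notes name Trim Galore 0.4.4, Bismark 0.17.0, FastQC and UMD3.1; the study's methods give other versions of Trim Galore, Bismark and the assembly. For every cytosine position the authors deposited the count of methylated reads, the count of unmethylated reads and the percent methylated, with the strands of a CpG listed apart and no read minimum applied.

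The positions, runs and thresholds were chosen with earlier results of these data known. Levels were recomputed from the counts. Dense windows, the spacing and the depth of surroundings were added after seeing the data. Named runs were those with the most CpGs in each class (up to 8 pure runs, 4 each of X, other placed and unplaced), and named positions the 3 per direction and tissue with the largest difference of group means among calls at least 1 kb apart.

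Treatment was tested on the counts at the positions covered by over 10 reads in each heifer, or in each calf for liver, by logistic regression with a likelihood-ratio test (Python 3.11.15, scipy 1.17.1). Alternatives were edgeR 4.0.16 and an F test scaled by the dispersion (floored at 1). On simulated data with 200 changed positions, the logistic test called 130 in the mammary gland and 199 in liver, edgeR 118 and 199, and the F test 1 and 195. Unchanged positions called were 31 and 50, 21 and 46, and 0 and 10. The simulated counts held counting error only, with no spread between animals, and calls were made on q alone. These counts do not give the recovery in the real liver data, where the spread between calves was far above counting error. A gene annotation and a genome of UMD3.1 were not used here, so genes, imprinted loci and sequences were not analysed.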

Additional observations from a re-analysis of the deposited data

Results flagged for a closer look

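Of 34 groups of calf values compared, 2 held a calf whose value stood apart (Dixon's ratio, 95% level). About 1 in 20 groups would be picked by chance if the groups were independent and not chosen on their values. Both calf values that stood apart are at intermediate positions of the chr27 block in liver. These positions were named for large group differences in the same calves, which favours outlying values, and other groups share positions. The 2 are therefore not weighed against that rate. At position 28862761, IUCL-B calf 5 had 49.6% and the other IUCL-B calves 88.9 to 96.6%. At position 28614744, IUHT-B calf 4 had 9.6% and the other IUHT-B calves 56.5 to 65.2%.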

How the results depend on the processing

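The number of intermediate positions was 1611 among 10272 positions with more than 20 reads in every heifer. It was 5734 in a window of 20 to 80% and 358 in a window of 40 to 60%, both among 18486. Under a cap that removed positions in the highest 0.1% of coverage of any heifer it was 748 among 6207. With a heifer left out it was 2674 to 2988, among 18902 to 21499. Runs numbered 2447, 324 and 609 under the wider window, the narrower window and the cap, 933 with gaps under 5 kb, and 1580 to 1705 with a heifer left out. Pure runs numbered 0 with more than 4 reads, 0 in the narrower window, 0 under the cap, 5 in the wider window, 2 with a depth ratio up to 2, 6 with a purity of at least 50%, and 0 to 1 with a heifer left out. The unplaced share was 22.7% with more than 20 reads, 21.2% in the narrower window and 33.2% under the cap, and 24.3 to 26.8% with a heifer left out. The X share was 1.12% with more than 20 reads, 2.92% in the wider window and 3.2% under the cap, and 1.92 to 2.3% with a heifer left out. The unplaced and X shares of all deep positions were not computed for other read minimums, the cap or a heifer left out. These shares are therefore not read as changes of the intermediate positions alone. The liver level kept within 1 SD of its value in all 12 alternatives, and the count in dense windows within 1.5 times in both. The cause of these shifts was not tested, other than that fewer or more positions pass each setting.

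Called intermediate positions in the mammary gland numbered 0 with edgeR and 0 with the F test, as over all deep positions, 0 of 748 under the cap (0.467% of all tested there) and 10 at q up to 0.05 (0.563% of all). The 0 of the F test has the limit described above. Leaving out a heifer gave 12 to 39 (1.39 to 2.4% of all), with 12 without IUCL-H heifer 3 (1.72% of all) and 19 without IUHT-H heifer 3 (1.39% of all). In liver they numbered 0 with edgeR (0.222% of all), 3 with the F test (6.33%), 2 with the F test and without IUCL-B calves 4 and 5 (chosen after seeing the data, 5.03%), 13 of 27 with more than 20 reads (27.7%) and 19 to 33 with a calf left out (32.6 to 36.8%), the 33 being of 70 tested.

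Calves of both groups carry the numbers 2 to 5, but the labels do not say that a number marks a pair. The deviations of same-numbered calves from their group means correlated at 0.0522, 0.0669, 0.107 and -0.0564 over the 900 liver positions, and 3 of 4 IUCL-B calves correlated best with their own number. With the replicate block, 18 of the 47 positions were called over calves 2 to 5, beside 32.6% of all 900.

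A level in a calf with more than 10 reads had a 95% Wilson interval with a median width of 16.8 points, which covers counting error only. The 36 X positions, of which a calf covered 13.9 to 55.6%, and the 4 positions in shallow surroundings limit what can be said of them in liver.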
